A study of Saccharomyces cerevisiae with 12 samples.

Results

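The 10 genes described here serve reductive iron uptake in Saccharomyces cerevisiae or regulate the supply of iron: FET3, FTR1, FRE1, FRE2, FRE3, FET4, SMF3, AFT1, AFT2 and TIS11. They were taken by name from the platform's gene annotation, each had 1 probe set, and all 10 were among the 5656 genes with a probe set of their own. Polyadenylated RNA of 12 aerobic steady-state chemostat cultures was hybridised to Affymetrix yeast S98 arrays, 1 array per culture. Growth was limited by ethanol, acetate, maltose or glucose, with 3 cultures each. The dilution rate, which sets the growth rate, was 0.1 per hour, the temperature 30 °C and the pH 5. The ethanol, acetate and maltose records name the wild-type MATa strain CEN.PK113-7D and a feed of 256 mmol of carbon per litre. The glucose records name no strain, and for glucose the strain is given only in the shared text of the other records. Dissolved oxygen was 60 to 75% of air saturation in the ethanol, acetate and maltose records and above 80% in the glucose records. No source used here gives the iron content of the medium. As each array measured bulk RNA, fewer cells with a transcript and less RNA per cell cannot be told apart.

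Budding yeast takes up iron by reducing ferric iron at the cell surface and moving the ferrous ion inward. In the high-affinity route the multicopper oxidase Fet3 oxidises the ion again as it passes to the permease Ftr1, so this route needs copper as well as iron. A low-affinity transporter, Fet4, works without the oxidase. The paralogous factors Aft1 and Aft2 activate the uptake genes when the cell's iron-sulfur cluster signal is low. Tis11, also named Cth2, then binds transcripts of iron-using proteins and shortens their life.

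The deposited values are array signals on a linear scale. Median signals were between 41.7 and 48.4 on 11 arrays and 22.8 on maltose array 2. The actin control probe sets, whose 3'/5' signal ratio tracks RNA integrity, gave ratios of 9.27 to 13.98 on arrays 2 and 3 of ethanol and of acetate, and of at most 3.31 on the other arrays. Those of the control gene YER148W were 7.33 to 10.05 on the same 4 arrays and at most 5.88 on the others. Where the 3'/5' ratio enters a fit below, it is the mean of the actin and YER148W log2 ratios. Cultures of the same source correlated at 0.941 to 0.982, and cultures of different sources at 0.905 to 0.982 (Pearson's r of log2 signals). Of the MATa markers, MFA1 and MFA2 read 926 or more on every array, while the MATalpha marker MF(ALPHA)2 was above a signal of 12 on 1 of 12 arrays. The other MATalpha markers STE3, MF(ALPHA)1 and SAG1 were above 12 on at least 11 arrays. A signal of 12 was used as a floor, and all 10 iron genes were above it on at least 3 arrays, so all 10 were tested. A call means an adjusted p under 0.05 by limma over 7176 probe sets. Nothing beyond their numbers says how the cultures of a source were kept apart, so p-values rest on the spread between these samples, which may be technical. Limma also draws the spread of each gene towards that of probe sets of like mean signal. By its own spread alone, the standard error (SE) would be smaller for SMF3 and larger for FET3 than given below.

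The question put to these genes was whether iron uptake transcripts differ with the carbon source at a fixed growth rate. The mean signal was highest in acetate cultures for 8 of the 10 genes, against 31.9% of all probe sets tested. The 8 include FRE3, near the floor, and FET4, with 1 acetate array above it. In comparisons of 2 sources the calls were FTR1, higher in acetate than in glucose cultures, and SMF3, higher in acetate than in maltose cultures. SMF3 was also called for ethanol and acetate together against the sugars. FET3 had the widest range of all 10, 16.6-fold from the lowest to the highest array, and it was not called in any comparison. FRE2, FRE3 and FET4 read close to the floor throughout.

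FET3 (YMR058W), the surface oxidase gene, read 76.2, 101.4 and 41.6 in ethanol cultures and 401.9, 195.2 and 201.9 in acetate cultures. It read 191.5, 688.9 and 94.7 in maltose cultures and 175.4, 119.4 and 90.1 in glucose cultures. Every ethanol array was below every acetate array, and maltose array 2 stood above all other arrays. The mean signal was 73.1 ± 30 on ethanol and 266 ± 117 on acetate (SD, n = 3 each), a log2 change of -1.87 ± 0.55 (SE) for ethanol against acetate. That is 3.67-fold lower on ethanol, with a limma unadjusted p of 0.00346 and an adjusted p of 0.703.

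The means in maltose and glucose cultures were 325 ± 319 and 128 ± 43.3 (SD, n = 3 each). The maltose arrays reached from within the glucose range to above all acetate arrays, and their SD was nearly as large as their mean. The log2 change of ethanol against maltose was -1.76 ± 0.55 (limma adjusted p = 0.0674). Without maltose array 2 it was -0.98 (limma adjusted p = 0.237), without maltose array 3 it was -2.41 (adjusted p = 0.0102), and among arrays whose description starts with P, a letter of unstated meaning, which keeps only maltose array 3, it was -0.47. For maltose against glucose the log2 change of 0.91 ± 0.55 became -0.41 among those P arrays and 0.12 without maltose array 2. In log2 units the residual SD of FET3 within sources was 0.88, larger than in 98.6% of the 500 probe sets nearest to it in mean signal, whose median was 0.35.

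FTR1 (YER145C), the permease gene whose product works with Fet3, spanned 2.26-fold from its lowest to its highest array. It read 339.3, 411.2 and 252.5 in ethanol cultures and 569.5, 418.5 and 464.1 in acetate cultures. The signals were 280.3, 419.2 and 323.7 in maltose cultures and 281.6, 253.9 and 275.6 in glucose cultures. All acetate arrays were above all ethanol and all glucose arrays, while maltose array 2 fell among the acetate values.

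FTR1 averaged 484 ± 77.5 in acetate cultures and 270 ± 14.6 in glucose cultures (SD, n = 3 each), and rose 1.78-fold (log2 0.83 ± 0.22, SE, limma adjusted p = 0.0342). This was the only call among the 10 genes in that comparison, in which 5.5% of all probe sets were called. The call held in 9 of 20 alternatives, with an adjusted p between 0.0181 and 0.216 and a log2 change between 0.71 and 1.08. Leaving out any acetate or any glucose array ended it (limma adjusted p = 0.0719 to 0.122). Acetate arrays 2 and 3 are among those with a high 3'/5' ratio. With that ratio in the fit the log2 change was 1.00 (limma adjusted p = 0.189), and with array 1 alone of ethanol and of acetate it was 1.08 (adjusted p = 0.216). Against maltose, FTR1 in acetate cultures had a log2 change of 0.51 ± 0.22 (limma adjusted p = 0.129). For ethanol against glucose it was 0.28 ± 0.22 (limma adjusted p = 0.576), with a 95% interval from -0.18 to 0.74.

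**Figure D1:**
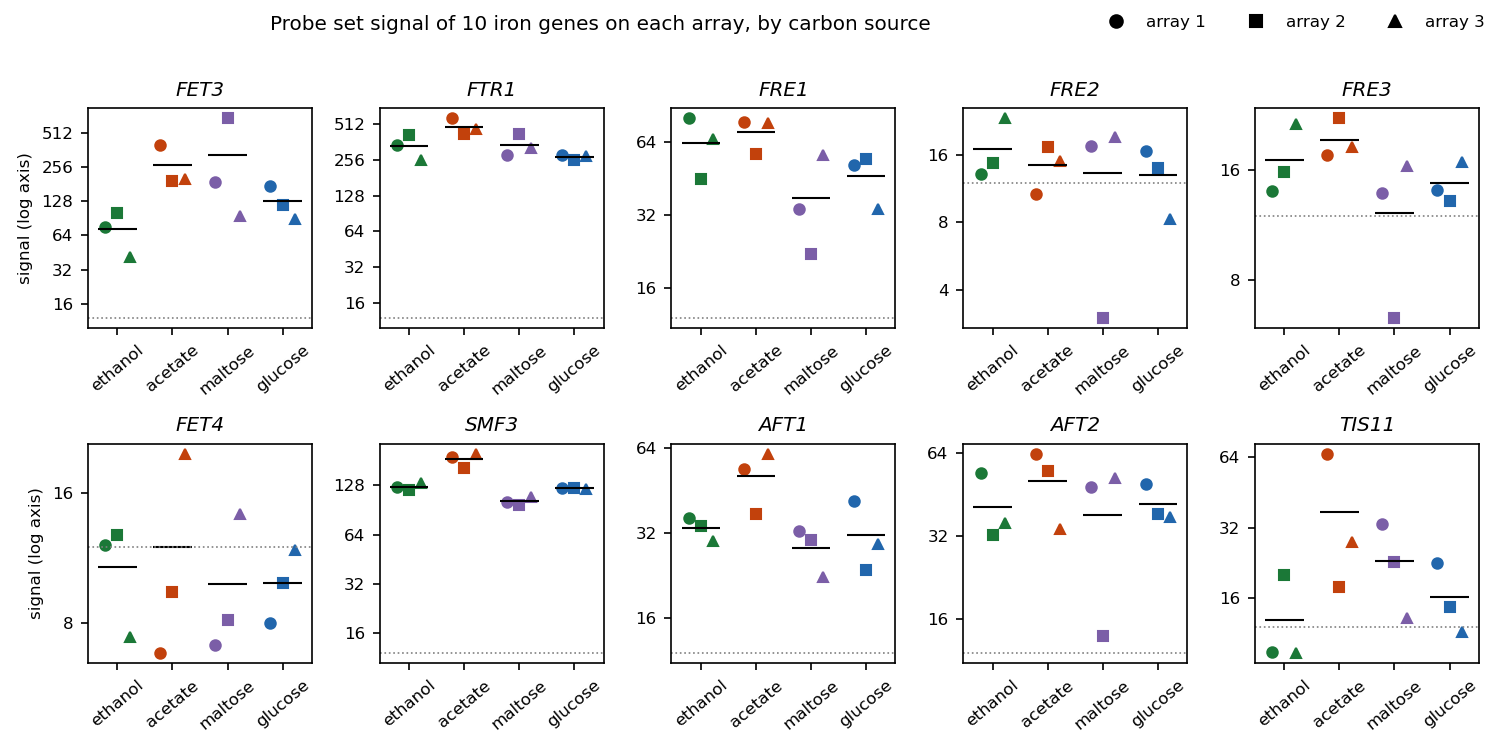
Signal of the 10 iron genes on each array (log axis, 1 panel per gene), by carbon source. Marker shapes give the array number, horizontal bars the mean of 3 arrays, and the dotted line the floor of 12. SMF3 read 164.8 or more on all acetate arrays and at most 132.1 on the other arrays, and FET3 read 688.9 on maltose array 2.

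Within each of the 4 sources, FET3 and FTR1 were highest on the same array. In ethanol cultures array 2 was highest and array 3 lowest for both genes. In acetate cultures array 1 was highest and array 2 lowest for both. Maltose array 2 and glucose array 1 were also highest for both, but the lowest arrays of those sources differed. Over the 12 arrays Pearson's r of their log2 signals was 0.634, given here as a description.

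SMF3 (YLR034C) encodes a divalent metal transporter of the vacuolar membrane, a route by which stored iron returns to the cytosol. It read 124.8, 119.8 and 132.1 in ethanol cultures and 190.2, 164.8 and 200.2 in acetate cultures. It read 101.3, 96.6 and 108.2 in maltose cultures and 124.1, 122.7 and 122.1 in glucose cultures. Every acetate array was above each of the other 9 arrays. No other of the 10 genes showed this, and 1.92% of all probe sets did. The residual SD within sources was 0.09 in log2 units, lower than in any of the 500 probe sets nearest in mean signal.

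SMF3 averaged 185 ± 18.3 in acetate cultures and 102 ± 5.86 in maltose cultures (SD, n = 3 each). It rose 1.81-fold (log2 0.86 ± 0.21, SE, limma adjusted p = 0.0172) and was the only 1 of the 10 genes called in a comparison that called 11.2% of all probe sets. The call held in 15 of 20 alternatives, with a log2 change between 0.66 and 0.94. It was lost without acetate array 3 (limma adjusted p = 0.097), with array 1 alone of ethanol and of acetate (0.204), with the 3'/5' ratio in the fit (0.0873) and in both settings that use the letter of the array description (0.101 and 0.207). Against glucose the log2 change of SMF3 on acetate was 0.58 ± 0.21 (limma adjusted p = 0.114), and ethanol differed from acetate by -0.56 ± 0.21 (limma adjusted p = 0.936).

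When ethanol and acetate cultures were set together against glucose and maltose cultures, SMF3 averaged 155 ± 34.8 and 113 ± 12.1 (SD, n = 6 each). Its log2 change was 0.44 ± 0.15 (limma adjusted p = 0.0494). This just passed, 1 of 10 genes against 17.1% of all probe sets, and the groups overlapped, since ethanol array 2 read below all 3 glucose arrays. The call held in 3 of 20 alternatives. The order of the SMF3 means was acetate, ethanol, glucose and maltose. Ethanol and glucose, neighbours in that order, differed by log2 0.03 ± 0.21 with a 95% interval from -0.41 to 0.47.

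**Figure D2:**
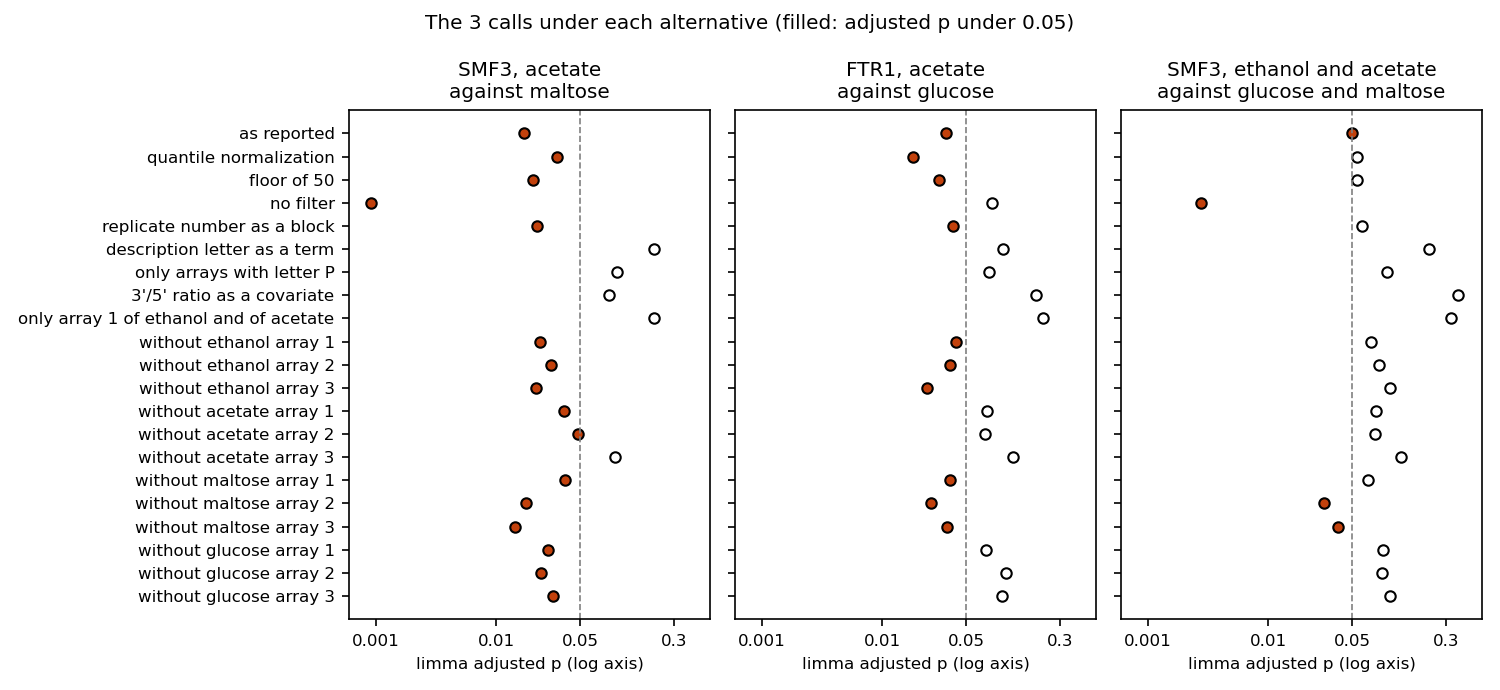
Limma adjusted p (log axis) of the 3 calls under each alternative, with filled points below 0.05 and the dashed line at 0.05. SMF3 in acetate against maltose stayed below 0.05 in 15 of 20 alternatives, FTR1 in acetate against glucose in 9, and SMF3 in ethanol and acetate against the sugars in 3.

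No surface reductase gene was called. FRE1 (YLR214W), a main ferric and cupric reductase gene, read 79.9, 44.8 and 65.5 in ethanol cultures and 77.4, 56.9 and 76.7 in acetate cultures. It read 33.9, 22 and 56.7 in maltose cultures and 51.1, 54.2 and 33.9 in glucose cultures. The acetate arrays were all above the maltose and the glucose arrays, whereas ethanol array 2 fell among the sugar arrays.

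FRE1 averaged 66.9 ± 13.9 in ethanol and acetate cultures and 42 ± 14 in glucose and maltose cultures (SD, n = 6 each). The log2 change was 0.72 ± 0.27 with a limma adjusted p of 0.0786. Without maltose array 3 the value was 0.90 (limma adjusted p = 0.0208), and a floor of 50 gave 0.36 (adjusted p = 0.046), the only 2 of 20 alternatives that called it. Maltose array 2, whose median signal was low, gave the lowest FRE1 reading, and without it the log2 change was 0.55 (limma adjusted p = 0.1).

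FRE2 (YKL220C), a second ferric reductase gene of the iron regulon, read between 10.7 and 23.3 in ethanol and acetate cultures and between 3.0 and 19.3 in maltose and glucose cultures. FRE3 (YOR381W), whose product reduces iron bound to siderophores, read between 14.0 and 22.2 in ethanol and acetate cultures and between 6.3 and 16.9 in maltose and glucose cultures. Both genes stood near the floor of 12, above it on 9 arrays for FRE2 and on 11 for FRE3. Their log2 changes for ethanol and acetate against the sugars were 0.06 ± 0.18 for FRE2 and 0.33 ± 0.16 for FRE3 (limma adjusted p = 0.866 and adjusted p = 0.157). At such signals a change of these 2 genes would be understated on the floored scale.

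FET4 (YMR319C), the low-affinity transporter gene, is known to be repressed by Rox1 in aerated cells. It read 12.1, 12.8 and 7.4 in ethanol cultures and 6.8, 9.4 and 19.7 in acetate cultures. The maltose readings were 7.1, 8.1 and 14.3 and the glucose readings 8.0, 9.9 and 11.8. The gene was thus above the floor on 4 of 12 arrays and on no glucose array, so its fitted changes are set by the floor and are not shown.

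**Figure D3:**
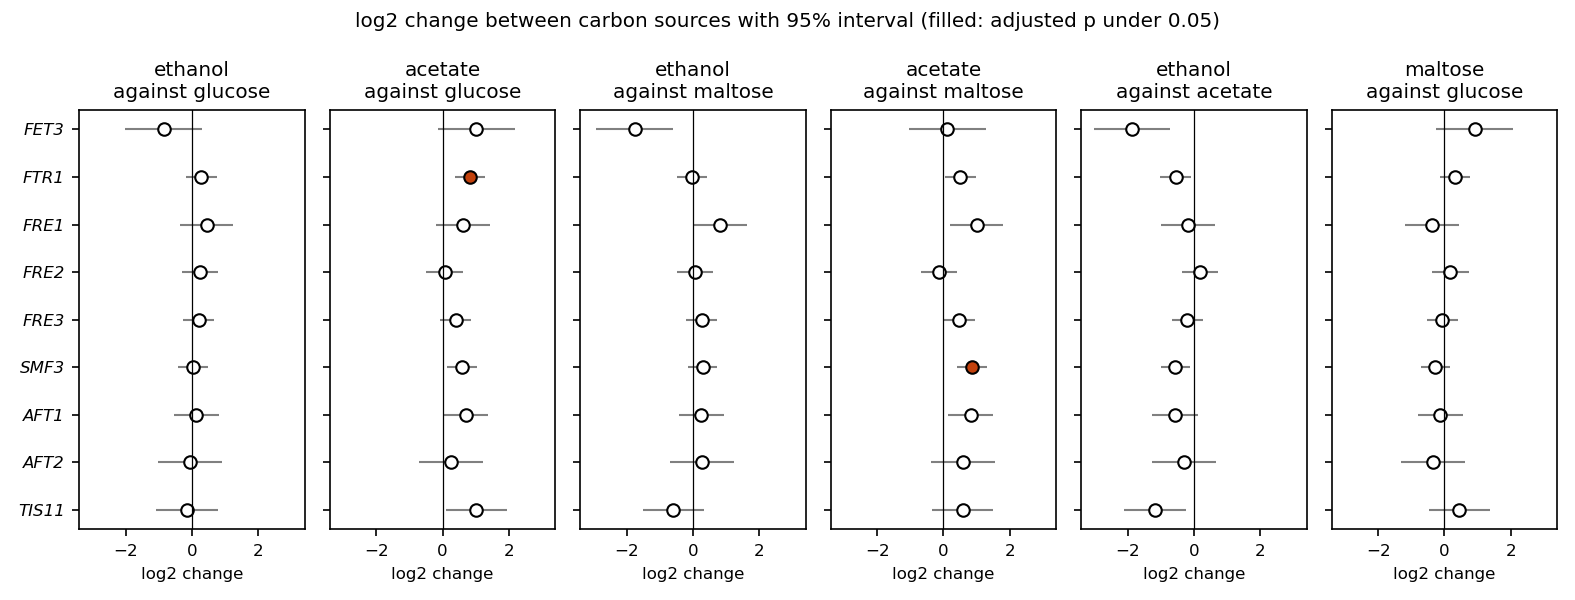
Change of the iron genes other than FET4 in log2 units (x axis) in 6 pairs of carbon sources, with 95% intervals from limma; filled points passed at an adjusted p under 0.05. FTR1 in acetate against glucose (0.83) and SMF3 in acetate against maltose (0.86) are the filled points.

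The regulators showed no call. AFT1 (YGL071W), the main activator gene of the regulon, read 36.2, 33.8 and 30.0 in ethanol cultures and 53.7, 37.2 and 60.9 in acetate cultures. It read 32.5, 30.1 and 22.4 in maltose cultures and 41.3, 23.6 and 29.3 in glucose cultures. All acetate arrays were above all ethanol and all maltose arrays, and glucose array 1 fell among the acetate values. The log2 change was 0.82 ± 0.32 for acetate against maltose (limma adjusted p = 0.106) and 0.70 ± 0.32 for acetate against glucose (limma adjusted p = 0.228).

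AFT2 (YPL202C), the paralogue of AFT1, had the levels 54.2, 32.1 and 35.6 in ethanol cultures and 63.4, 54.9 and 33.7 in acetate cultures. Its maltose readings were 48.1, 13.9 and 51.8, and its glucose readings 49.1, 38.3 and 37.4. The sources overlapped in every pair. The log2 change of acetate against maltose was 0.59 ± 0.45 (limma adjusted p = 0.405), with a 95% interval from -0.38 to 1.55.

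TIS11 (YLR136C) read 9.4, 20.0 and 9.3 in ethanol cultures and 66.2, 17.9 and 27.7 in acetate cultures. It read 33.2, 22.8 and 13.1 in maltose cultures and 22.5, 14.6 and 11.5 in glucose cultures. Ethanol arrays 1 and 3 and glucose array 3 were below the floor of 12. Acetate array 1 was the highest by far, and acetate array 2 lay below ethanol array 2. The log2 change of ethanol against acetate was -1.17 ± 0.44, with a limma unadjusted p of 0.0165 and an adjusted p of 0.936. With 2 of 3 ethanol arrays at the floor, the size of this change depends on the floor. Without acetate array 1 it was -0.65 (limma adjusted p = 0.865).

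Between ethanol and acetate limma called 0 of the 10 genes, and 0.0279% of all probe sets. At an unadjusted p under 0.05 the count was 4 of 10 (FET3, FTR1, SMF3 and TIS11, the last with ethanol arrays at the floor), against 4.29% of all probe sets. Every ethanol array was below every acetate array for 4 of 10 genes (FET3, FTR1, SMF3 and AFT1), against 4.96% of all probe sets. The median log2 change of the 10 genes was -0.43 (-0.55 without FET4), and that of all probe sets was -0.02. These shares are a description of genes picked with earlier results known.

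The comparisons of acetate and of ethanol with the sugars share the sugar arrays, and their medians are given side by side. Genes whose arrays did not overlap were counted for acetate only, so that count does not compare acetate with ethanol. All acetate arrays were above all glucose arrays for 5 of 10 genes (18.6% of all probe sets) and above all maltose arrays for 4 of 10 (21.2%). The median log2 change of the 10 genes was 0.60 for acetate against glucose and 0.54 for acetate against maltose, with 0.03 and 0.23 over all probe sets. Without FET4 the medians were 0.62 and 0.58. At a limma unadjusted p under 0.05, acetate against glucose gave FTR1, SMF3, AFT1 and TIS11, the last with glucose array 3 below the floor. Over all probe sets it gave 1515 of 7176. Acetate against maltose gave FTR1, FRE1, SMF3 and AFT1, and 2092 of 7176 over all probe sets. Ethanol gave medians of 0.08 against glucose and 0.15 against maltose, with 0.01 and 0.21 over all probe sets. Without FET4 they were 0.12 and 0.25. Limma called 0 of the 10 genes for ethanol against glucose (2.55% of all probe sets; 0 at an unadjusted p under 0.05, against 16.2%). It called 0 of the 10 for ethanol against maltose (6.19%; 2 at an unadjusted p under 0.05, FET3 and FRE1, against 24.9%). For maltose against glucose the count was also 0 (0.209%; 0 at an unadjusted p under 0.05, against 11.6%).

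The genes outside the 10 whose log2 signal was most like the mean of FET3 and FTR1 over the 12 arrays were FIT2, ENB1, ARN1, FIT3 and SIT1. Pearson's r was 0.909, 0.804, 0.801, 0.769 and 0.744 in that order. FIT2 and FIT3 encode cell wall mannoproteins that hold siderophore iron, and the other 3 encode siderophore transporters. Taken as deviations from the mean of each source, r was 0.829 for FIT2, 0.78 for ENB1, 0.556 for ARN1, 0.798 for FIT3 and 0.813 for SIT1. Among acetate cultures array 1 was highest for FET3, FTR1 and each of these genes. Among maltose cultures array 2, with the low median signal, was highest for all of them but ARN1. Values of r without these arrays were not computed. FIT2 read 453.2 on acetate array 1 and 703.0 on maltose array 2, against 68.1 to 90.1 in ethanol cultures.

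TIS11 had 4 of the same genes nearest, ENB1 (0.792), SIT1 (0.743), ARN1 (0.722) and FIT2 (0.722), followed by CPD1 (0.685). It was below the floor on ethanol arrays 1 and 3 and glucose array 3, and acetate array 1 stood far above its other readings. The probe sets nearest to FET4 were MAM1, RPS10B, FMP27, SNR31 and SAK1, with r from 0.874 to 0.987. As FET4 was above the floor on 4 arrays, these values rest on the few arrays above it.

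**Figure D4:**
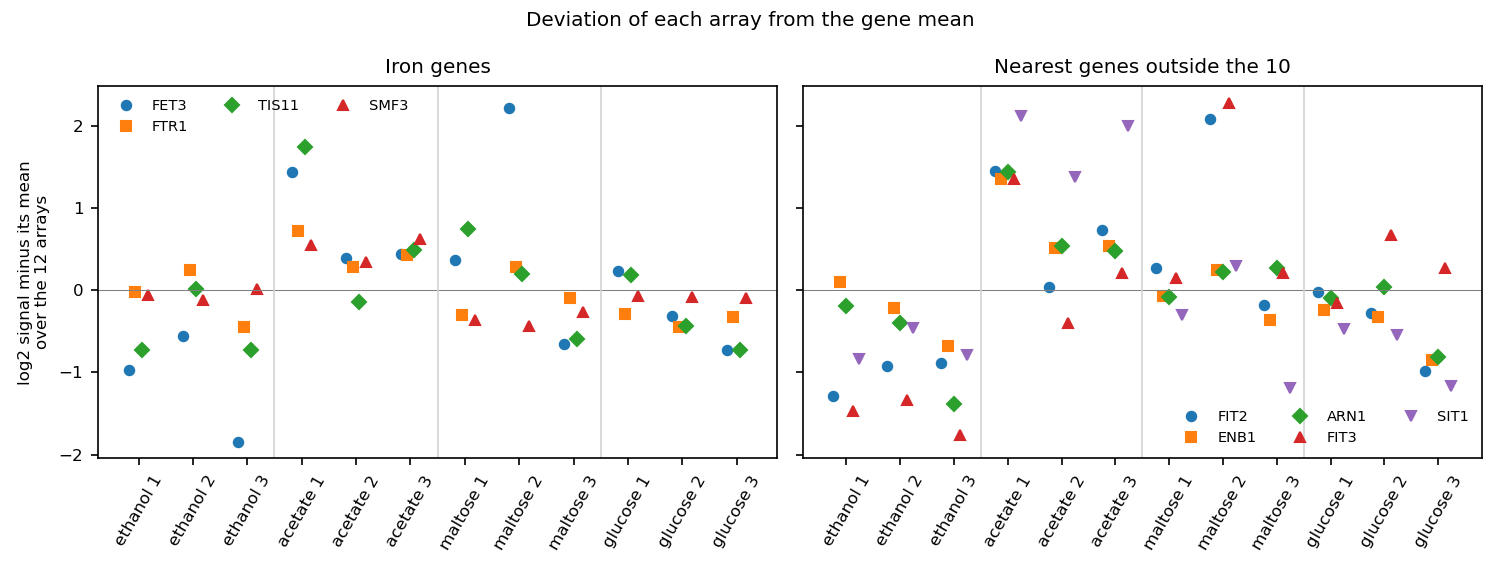
The y axis is each array's log2 signal minus the gene's mean over 12 arrays, for 4 of the iron genes (left) and the 5 genes nearest to the mean of FET3 and FTR1 (right). FET3, FIT2 and FIT3 are highest on maltose array 2, and FET3, FTR1 and TIS11 are all above their means on acetate array 1.

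Other genes of iron acquisition and mobilisation were called beside the 10. Of 15 tested out of 17 listed, 4 rose and 1 fell for ethanol and acetate against the sugars, where 17.1% of all probe sets were called, with a median log2 change of 0.19 and 0.12 over all probe sets. COT1, a vacuolar zinc and cobalt transporter gene, rose 2.23-fold (log2 1.16 ± 0.15, SE, limma adjusted p = 9.88e-05). HMX1, which encodes haem oxygenase, an enzyme that frees iron from haem, rose 1.56-fold (log2 0.64 ± 0.14, limma adjusted p = 0.00664). FTH1, a vacuolar iron permease gene related to FTR1 and chosen after its values were seen, rose 1.54-fold (log2 0.62 ± 0.12, limma adjusted p = 0.00311). SIT1 rose 2.19-fold (log2 1.13 ± 0.24, limma adjusted p = 0.00462). Taken singly, acetate gave log2 2.56 against glucose and 2.23 against maltose (limma adjusted p = 0.000338 and adjusted p = 0.000555), and ethanol gave 0.03 and -0.30 (adjusted p = 0.98 and adjusted p = 0.611). FIT3 fell, with a log2 change of -1.14 ± 0.34 (limma adjusted p = 0.0312), a call that was lost on leaving out any 1 of 6 arrays (adjusted p = 0.0558 to 0.0916): ethanol 3, acetate 2 or 3, maltose 2, glucose 2 or 3. Its ethanol values were -1.79 against glucose (limma adjusted p = 0.0643) and -2.40 against maltose, and its acetate values 0.12 and -0.49 (adjusted p = 0.931 and adjusted p = 0.515). Arrays 2 and 3 of ethanol and of acetate had the high 3'/5' ratio, and its part in the changes of this and the copper list was not tested. For acetate against glucose 5 of the 15 rose (5.5% of all probe sets were called), and for ethanol against maltose 1 rose and 2 fell (6.19%).

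SIT1 was 1 of only 2 probe sets in the whole table called between ethanol and acetate. It read 79.7, 103.1 and 82.3 in ethanol cultures and 615.0, 369.0 and 565.9 in acetate cultures, a log2 change of -2.52 ± 0.34 (limma adjusted p = 0.0046). The adjusted p was 0.0512 by limma without ethanol array 3 and 0.0847 without acetate array 3. Its signals were 115.1, 173.7 and 62.5 in maltose cultures and 102.2, 97 and 63.6 in glucose cultures, so the ethanol arrays lay within the range of the sugar arrays.

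FIT3 read 216.2, 238 and 176.8 in ethanol cultures and 666.6, 2905.5 and 691.1 in maltose cultures. Maltose array 2 stood apart here as it did for FET3. FIT3 fell 5.28-fold in ethanol against maltose cultures (log2 -2.40 ± 0.48, limma adjusted p = 0.00767), and 3.25-fold without maltose array 2 (log2 -1.70, adjusted p = 0.034).

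Fet3 is a copper enzyme, and copper genes were listed for that reason. Of 9 tested out of 11 listed, CTR1 and CTR3, the high-affinity copper transporter genes, rose for ethanol and acetate against the sugars, and the other 7 were not called by limma. This count of 2 of 9 is near the 17.1% called over all probe sets. CTR3 averaged 1480 ± 414 in ethanol and acetate cultures and 836 ± 274 in the sugar cultures (SD, n = 6 each), with a log2 change of 0.85 ± 0.16 (limma adjusted p = 0.00272). CTR1 had a log2 change of 0.76 ± 0.16 (limma adjusted p = 0.00468). Taken singly, ethanol and acetate each gave a call of both genes against maltose, and neither gene was called against glucose. The CTR3 means were 1800 in ethanol, 1160 in acetate, 631 in maltose and 1040 in glucose cultures. For CTR3 the acetate arrays (1421.8, 1054.7 and 997) overlapped the glucose arrays (1193.5, 1004.7 and 922). The median log2 change of the copper list was 0.31, against 0.12 over all probe sets.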

How the data were processed

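The authors deposited probe set intensities (signals) of 12 Affymetrix yeast S98 arrays. Per the labels, MAS5 made those of the ethanol, acetate and maltose arrays; no source used here gives its version or the software of the glucose arrays. The deposited intensities had nearly the same 2% trimmed mean on all arrays. They were scaled to 1 trimmed mean, floored at 12 and log2 transformed. Of 9335 probe sets, 60 controls were left out; 7176 above 12 on at least 3 arrays were tested. Probe sets were named from the platform annotation, with symbols updated through RefSeq.

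A mean per carbon source was fitted by limma 3.58.1 under R 4.3.3, using eBayes with an intensity trend and Benjamini-Hochberg adjustment over all probe sets. Folds are on the floored scale. Precision is limited by the number of arrays and by signal over background. The pipeline was tested on simulated data. The 10 genes and the related lists were chosen with earlier results of these data known. The related genes named were, per list, up to 4 called ones with the largest change for ethanol and acetate against the sugars, or 2 values in another comparison, and the 5 nearest by Pearson's r. Alternatives were quantile normalization, a floor of 50, no filter, the replicate number as a block, the letter that starts the array description as a term or P only, the 3'/5' ratio as a covariate, array 1 alone of ethanol and of acetate, and leaving out each array. For the related genes named, leaving out each array was added after seeing the data, as were the medians without FET4.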

Additional observations from a re-analysis of the deposited data

How the results depend on the processing

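The number of the 10 genes called was 0 under all 20 alternatives for ethanol against acetate, ethanol against glucose and maltose against glucose. For ethanol and acetate against the sugars, 1 in the text, it was 0 with the replicate number as a block, with the description letter as a term, among P arrays, with the 3'/5' covariate and with array 1 alone of ethanol and of acetate, and 0 to 2 on leaving out single arrays. After quantile normalization and with a floor of 50 it was 1, but FTR1 and FRE1 in place of SMF3 (5 of the 10 genes pass that floor). For acetate against glucose, 1 in the text, it was 2 after quantile normalization (FTR1 and SMF3), 0 with the letter as a term, among P arrays, with the covariate and with array 1 alone, and 0 to 2 on leaving out single arrays; without a filter it was 1, SMF3 in place of FTR1. For acetate against maltose it was 0 with the letter as a term, among P arrays, with the covariate and with array 1 alone, and 0 to 2 on leaving out single arrays. For ethanol against maltose, 0 in the text, it was 1 with the replicate block, FET3 at an unchanged log2 change of -1.76 (limma adjusted p = 0.0311), and 0 to 2 on leaving out single arrays. The cause of these changes was not tested. Over all sources the replicate numbers did not pair the cultures by the deviations from the source means. Their r was over 0.1 for 6 of 18 same-numbered pairs (-0.209 to 0.529) and 9 of 36 others (-0.522 to 0.307). Between ethanol and acetate r was 0.529 for arrays 1, -0.08 for arrays 2 and 0.426 for arrays 3. It was -0.475 and -0.522 for array 1 with array 3, and -0.204 to 0.259 for the remaining pairs. Their actin 3'/5' ratios also ran alike by number (3.31, 9.27 and 13.98 on ethanol, 2.78, 10.24 and 13.09 on acetate). What the numbers share was not tested, so the block result stands for a shared number only. Of the 1365 changes of the 10 genes under the alternatives, 33 lost and 12 gained a call, and no called value changed sign; 103, none called, were on the other side of 0.

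The number of all probe sets called for ethanol and acetate against the sugars was 1225. After quantile normalization 767 were higher and 645 lower, against 817 and 408 in the text, and the median log2 change over all probe sets was 0.01 in place of 0.12. The number called was 789 without a filter, 568 with the letter as a term, 699 among P arrays, 147 with the covariate, 172 with array 1 alone, and 705 to 1524 on leaving out single arrays. For acetate against glucose it was 395, and 182, 62 and 73 without a filter, with the covariate and with array 1 alone (122 to 674 on leaving out arrays). For acetate against maltose it was 801, and 503, 204, 195, 267 and 94 without a filter, with the letter, among P arrays, with the covariate and with array 1 alone (250 to 1342). For ethanol against glucose it was 183, and 107, 40 and 55 without a filter, with the covariate and with array 1 alone (75 to 243). For ethanol against maltose it was 444, and 272, 160, 173, 160 and 73 in the settings named for acetate against maltose (160 to 989). For maltose against glucose it was 15, and 35, 40 and 2 with the letter, among P arrays and with array 1 alone (8 to 138), and for ethanol against acetate 2, and 23 with array 1 alone (1 to 4).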

Other observations

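The list of iron-requiring enzymes and subunits was split in its changes for ethanol and acetate against the sugars: of 15 genes tested, 5 rose and 5 fell, and the median log2 change was -0.29. Over all probe sets 17.1% were called (817 higher and 408 lower) and the median was 0.12. With the 3'/5' ratio, high on arrays 2 and 3 of ethanol and of acetate, in the fit, 147 probe sets were called in place of 1225. Its part in the changes of the single genes named in this section was not tested. BIO2, the biotin synthase gene, rose (log2 0.88 ± 0.14, limma adjusted p = 0.000507), as did GLT1, encoding glutamate synthase (0.66 ± 0.13, adjusted p = 0.00372). The GLT1 means were 1130 in ethanol, 734 in acetate, 636 in maltose and 532 in glucose cultures. Taken singly, GLT1 was called for ethanol against each sugar and for acetate against neither. ERG5, a sterol desaturase gene, fell (log2 -0.80 ± 0.14, limma adjusted p = 0.0013), as did LIP5, encoding lipoate synthase (-0.68 ± 0.18, adjusted p = 0.0174). The LIP5 call was lost without ethanol array 2, acetate array 2 or 3 or glucose array 1 (limma adjusted p = 0.0501 to 0.0576). Of the 14 iron-sulfur assembly genes 1 rose, ISA1 (log2 0.51 ± 0.13, limma adjusted p = 0.0158), a smaller share than the 17.1%.

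Neither iron sensing (6 genes) nor haem synthesis (8 genes) had a call in any of the 7 comparisons by limma; at an unadjusted p under 0.05 there were 5 of 42 values for sensing and 4 of 56 for haem, against 19.9% over all probe sets and the same comparisons. The largest changes between 2 sources were those of CTH1, a paralogue of TIS11, with log2 0.90 ± 0.30 for acetate against glucose (limma adjusted p = 0.0883), and of HEM13 with 0.95 ± 0.32 for acetate against maltose (adjusted p = 0.0703). CTH1 read 12.2 to 12.6 in glucose cultures, next to the floor of 12, and 19.3, 34.7 and 18.5 in acetate cultures. FRA1 was at 0.62 ± 0.23 for ethanol against maltose (limma adjusted p = 0.114) and HEM1 at -0.66 ± 0.21 for maltose against glucose (adjusted p = 0.282). Of 9 zinc and manganese transport genes, 1 rose and 1 fell for ethanol and acetate against the sugars, and 7 were not called. Over all probe sets 17.1% were called in that comparison. SMF2, related to SMF3, rose (log2 0.58 ± 0.17, limma adjusted p = 0.0321). That call was lost without any single acetate or glucose array and without ethanol array 2 or 3 (adjusted p = 0.0501 to 0.0729). PHO84, which also carries manganese, fell (limma adjusted p = 0.00786). It read 9.1 to 22 in ethanol and acetate cultures, with 3 of 6 arrays below the floor of 12, so the size of its change depends on the floor. In the sugar cultures it read 924 on glucose array 1 and 35.4 to 76.9 on the other arrays. The fitted log2 change was -2.58 with glucose array 1 and -1.81 without it (limma adjusted p = 6.96e-05). Of 8 oxygen-regulated genes tested, 1 fell in the same comparison and 7 were not called, against 17.1% called over all probe sets. The 1 was CYC7, reading 6.6 to 18.8 in ethanol and acetate cultures and 53.5 to 124 in the sugar cultures (limma adjusted p = 1.61e-06). All its acetate arrays (11.9, 10.6 and 6.6) were below the floor of 12 and enter the fit at the same value. The size of its change thus depends on the floor.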
